A study of Mus musculus with 35 samples.

Results

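The genes described here are Ins2, Il9r, Itih3, Tlx3, Dcpp1, Dcpp2 and Dcpp3, 7 of the 54752 genes measured. They were chosen by their measured levels in these same libraries, which were close to 0 in mouse embryonic fibroblasts that had not received the transcription factor Glis1. The difference between the arm without Glis1 and the other arms is therefore given as a description, and it carries no test here. Fibroblasts from embryonic day 13.5 embryos that carry an Oct4-GFP reporter were infected at passage 2 for 48 hours with retroviruses that carry 4 transcription factors (Jdp2, Glis1, Esrrb and Sall4, together JEGS) or 3 of them, and were then moved to iCD3 induction medium with Rock inhibitor for up to 7 days. There are 8 libraries from each arm that lacks 1 factor, 1 for each day from 0 to 7, and 3 libraries of JEGS, from days 2, 4 and 6. JEGS files bear the mark of a repeat number 2, so the complete factor set cannot be told apart from a batch. No day of an arm has a replicate, and nothing in the labels says that the days of an arm came from separate cultures. The p-values therefore rest on differences among single libraries, which may be technical. Library totals ran from 1266379 to 3608456 expected counts, so that 1 count was worth 0.277 to 0.79 CPM (counts scaled to the library total).

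Glis1 belongs to the GLIS family of zinc finger proteins, relatives of the GLI proteins of the Hedgehog pathway and of the ZIC proteins, and binds a G-rich element in DNA. It is abundant in the unfertilised egg and was found to promote the reprogramming of fibroblasts, while its relative Glis3 is known as an activator of insulin genes in pancreatic beta cells. The 7 genes have no common function. Ins2 encodes an insulin, Il9r the ligand-binding chain of the interleukin 9 receptor of lymphocytes and mast cells, and Itih3 a heavy chain of the inter-alpha-trypsin inhibitors, liver proteins that bind hyaluronan. Tlx3 encodes a homeobox factor of neurons of the spinal cord and hindbrain, and Dcpp1, Dcpp2 and Dcpp3 encode closely related secreted proteins of salivary glands.

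The level of Glis1 followed the sample names. In the arm without Glis1 it stood at 0 to 8.98 TPM (a level scaled to transcript length and library size), with a median of 0.42 TPM and 17 counts in all. It ran from 419 to 1595 TPM without Esrrb, from 206 to 875 TPM without Jdp2 and from 687 to 1003 TPM without Sall4. The 3 JEGS libraries held 842, 652 and 258 TPM on days 2, 4 and 6. All 27 libraries that received Glis1 thus lay above all 8 that did not, although reads of the retrovirus and of the endogenous gene are counted together.

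Ins2 was the most abundant of the 4 members outside the Dcpp cluster. Without Glis1 it had 5 counts over 8 libraries, on days 0, 5 and 6, and at most 10.3 TPM. In JEGS it stood at 363, 787 and 424 TPM on days 2, 4 and 6. Its level without Esrrb ran from 87.0 TPM on day 0 to 3367 TPM on day 2, with a median of 966 TPM, and it ranked 32 by TPM among all genes of the day 3 library. The arms without Jdp2 and without Sall4 were lower than this, with medians of 157 and 224 TPM and highest values of 269 TPM on day 5 and 282 TPM on day 6. Only the day 0 libraries of these arms, at 3.17 and 0 TPM, did not exceed the highest library without Glis1. Pooled over libraries, Ins2 was 91.7-fold higher without Jdp2 than without Glis1 (exact 95% interval 39.0 to 283.5), 120-fold higher without Sall4 (51.1 to 369.7), 366-fold higher in JEGS (155.9 to 1134) and 879-fold higher without Esrrb (376.1 to 2708). These intervals cover counting error only, and reads without molecular identifiers are not independent molecules. Ins2 (ENSMUSG00000000215) spans chr7:142678656-142743381 on the minus strand of GRCm38 in GENCODE M21, while its RefSeq gene ends at 142679726, and which models the authors counted is not given in the sources used here.

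Il9r and Itih3 had no count in any library without Glis1. For Il9r the JEGS libraries held 6.04, 6.87 and 1.72 TPM on days 2, 4 and 6. It ran from 0.75 to 38.4 TPM without Esrrb (median 11.4), with its highest value on day 2, and from 0 to 13.98 TPM without Jdp2 (median 2.75), highest on day 5. Without Sall4 it ran from 0 TPM on day 0 to 13.4 TPM on day 7 (median 8.99). The day 0 libraries without Jdp2 and without Sall4 were at 0, like the arm without Glis1, and the other 25 libraries that received Glis1 were above 0. With the arm without Glis1 set to a floor of 3 counts over its 8 libraries (0.178 CPM), Il9r was at least 45.5-fold higher without Jdp2, at least 63.6-fold higher in JEGS, at least 80.6-fold higher without Sall4 and at least 128-fold higher without Esrrb. Il9r (ENSMUSG00000020279) lies at chr11:32187541-32200279 on the minus strand.

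Itih3 was the gene whose order of arms differed most plainly from that of Ins2. Its JEGS libraries held 16.7, 13.1 and 1.93 TPM on days 2, 4 and 6. Without Jdp2 it ran from 3.40 to 24.3 TPM (median 9.44), highest on day 4, and was already present on day 0. Without Esrrb it ran from 0 to 7.32 TPM (median 3.65) and without Sall4 from 0 to 6.11 TPM (median 3.88), and both of these arms were at 0 on day 0. The bounds over the arm without Glis1 were at least 32.7-fold without Esrrb, at least 33.3-fold without Sall4, at least 92.9-fold in JEGS and at least 100.03-fold without Jdp2. Itih3 (ENSMUSG00000006522) lies at chr14:30908572-30923760 on the minus strand.

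Tlx3 had 1 count without Glis1, on day 0. The JEGS libraries held 12.92, 26.5 and 11.1 TPM on days 2, 4 and 6. It was at 0 on days 0 and 1 both without Esrrb and without Jdp2, and then reached 19.9 and 26.2 TPM on day 4. Without Sall4 it ran from 1.19 TPM on day 0 to 28.0 TPM on day 6 (median 14.3). Of the 27 libraries with Glis1, 23 exceeded the highest library without it, and the other 4 were the early ones at 0. The pooled ratios to the arm without Glis1, which rest on that 1 count, were 102 without Esrrb (17.8 to 4093), 193 without Jdp2 (34.3 to 7675), 247 without Sall4 (43.9 to 9768) and 290.1 in JEGS (50.5 to 11606). Tlx3 (ENSMUSG00000040610) lies at chr11:33200752-33203589 on the minus strand.

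The Dcpp genes stand side by side on the plus strand of chromosome 17. Dcpp1 (ENSMUSG00000096445) spans chr17:23880876-23882853, Dcpp2 (ENSMUSG00000096278) chr17:23880880-23900788 and Dcpp3 (ENSMUSG00000057417) chr17:23917458-23919441, and 1 annotated transcript of Dcpp2 starts inside Dcpp1. Their coding sequences are 93.2% to 95.3% identical in pairs. Of all stretches of 50 bases in the transcripts of Dcpp1, 46.5% occur in another Dcpp gene as well, and for Dcpp2 and Dcpp3 the shares are 44.2% and 45.8%. A fragment that lies wholly in shared sequence cannot be assigned to 1 gene, so the sum is the firmer quantity. How many fragments were shared was not measured. Fragments were 198.5 to 212.3 bases long, well over 50. In JEGS on day 4, for example, the expected counts of the single genes were whole numbers (68, 81 and 78). The sequences before their starts are as alike as the coding ones, at 93.3% identity for Dcpp1 and Dcpp2, 94.9% for Dcpp1 and Dcpp3 and 96.4% for Dcpp2 and Dcpp3, against 43.6% to 51.1% for the 12 other pairs among the 6 members with a promoter in the table used. They are shown because the genes move together. The 250 bases before the start that the promoter table uses are given 5′ to 3′ from RefSeq (GRCm38.p6), at chr17:23880626-23880875, chr17:23898472-23898721 and chr17:23917208-23917457, with capitals where the reverse complement of the GLIS core motif TGGGGGGT was found. For Dcpp1 and Dcpp3 that start is the GENCODE one, and the RefSeq genes begin further upstream, at 23880669 and 23917419, so these windows reach into them. For Dcpp2 it is the RefSeq start at 23898722, not that of its longest GENCODE transcript.
Dcpp1: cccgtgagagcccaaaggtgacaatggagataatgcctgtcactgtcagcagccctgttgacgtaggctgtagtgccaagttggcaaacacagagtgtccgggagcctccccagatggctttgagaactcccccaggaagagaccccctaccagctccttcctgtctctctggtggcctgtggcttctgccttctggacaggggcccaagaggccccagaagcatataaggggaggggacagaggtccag
Dcpp2: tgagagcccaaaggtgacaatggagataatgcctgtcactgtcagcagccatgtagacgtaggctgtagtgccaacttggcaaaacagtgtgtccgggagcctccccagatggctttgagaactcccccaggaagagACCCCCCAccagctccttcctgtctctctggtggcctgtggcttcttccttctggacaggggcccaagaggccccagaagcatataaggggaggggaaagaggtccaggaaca
Dcpp3: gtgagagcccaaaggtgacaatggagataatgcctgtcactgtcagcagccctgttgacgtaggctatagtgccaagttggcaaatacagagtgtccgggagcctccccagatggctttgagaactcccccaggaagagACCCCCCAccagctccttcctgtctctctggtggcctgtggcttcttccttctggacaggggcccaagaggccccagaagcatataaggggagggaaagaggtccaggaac

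The stretch ACCCCCCA begins 113 bases before the start of Dcpp2 and 111 bases before that of Dcpp3. Dcpp1 has ACCCCCTA at the same place, a difference of C7T when positions are counted from 1 at the first base of the stretch as printed. On either strand, TGGGGGGT was found in 446 of 32851 promoters of that length (1.36%), and among the members with a promoter in the table in these 2 of 6, which are near copies of each other. The GLI motif GACCACCCA (0.225% of promoters), the ERR site AAGGTCA (4.08%), the AP-1 site TGACTCA (4.46%) and the CRE TGACGTCA (1.55%), each searched on both strands, were not found in the 250 bases of any of the 6. None of the motifs overlaps another in these windows. A match is a run of letters, and binding was not measured.

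Without Glis1 the Dcpp genes together had 4 counts, all on day 6, namely 1 of Dcpp2 and 3 of Dcpp3, which made 4.95 TPM. The sum in JEGS was 215, 447 and 364 TPM on days 2, 4 and 6. Without Esrrb it ran from 126 TPM on day 0 to 6779 TPM on day 3, with a median of 2843 TPM, and Dcpp2 alone then ranked 44 among all genes of that library. Without Jdp2 the sum ran from 1.96 TPM on day 0 to 452 TPM on day 6 (median 146). Without Sall4 it ran from 5.37 TPM on day 1 to 130.1 TPM on day 7 (median 31.2). The arms with Glis1 therefore spread over a wide range, and the lowest library without Esrrb (126 TPM) lay just under the highest without Sall4. Pooled over libraries, the sum was 71.1-fold higher without Sall4 than without Glis1 (exact 95% interval 27.5 to 262.5), 220-fold higher without Jdp2 (85.5 to 807.7), 448-fold higher in JEGS (174 to 1653) and 3799-fold higher without Esrrb (1483 to 13945). In the 19 libraries with 50 or more summed counts, Dcpp1 took 15.7% to 31.4% of the counts, Dcpp2 30.1% to 52.2% and Dcpp3 23.9% to 47.3%.

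**Figure D1:**
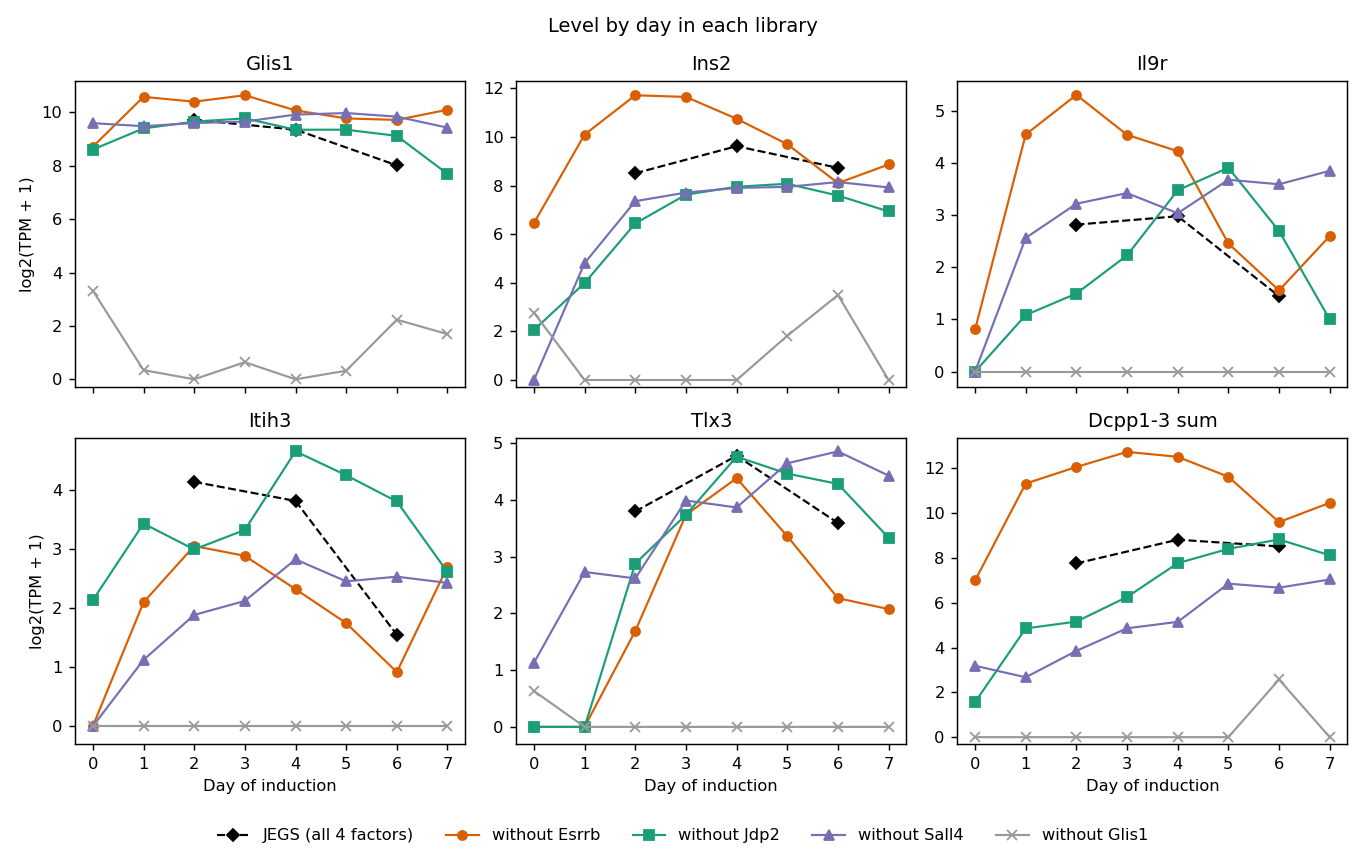
Level of Glis1, of the 4 members outside the Dcpp cluster and of the summed Dcpp genes, as log2(TPM + 1), against the day of induction, with 1 point per library and 1 line per arm. The arm without Glis1 (grey crosses) stays at or near 0 in the member panels, with Ins2 at no more than 10.3 TPM, while the arm without Esrrb (orange) peaks on days 2 and 3 for Ins2 and the Dcpp sum.

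In the contrast that served to choose them, all 7 genes were lower without Glis1 by edgeR, as were 16.3% of the 18135 genes tested, while 36.3% were called in either direction. The members passed the filter on low values through the arms where they are high, so nothing is read from that count. Across all 54752 genes, 44 genes had at most 3 counts over the 8 libraries without Glis1 and a mean of 1 CPM or more in each of the other 3 leave-out arms. The same rule gave 32 genes for the arm without Esrrb, 26 for the arm without Sall4 and 5 for the arm without Jdp2. Of the genes without Glis1 that are no members, the ones with the highest level in their lowest other arm were the predicted genes Gm10359 and Gm12671 (both 135 CPM there and 0 counts without Glis1), Gdap1l1 (25.5 CPM and 3 counts), the chitinase-like Chil1 (12.5 CPM and 1 count) and 2300002M23Rik (10.8 CPM and 0 counts). The arm without Glis1 also differed in the other factors, with Esrrb at 4292 to 7451 TPM and Jdp2 at 1509 to 3420 TPM. Esrrb stood at 594 to 2877 TPM without Jdp2 and at 5292 to 7368 TPM without Sall4, and Jdp2 at 820.2 to 1304 TPM without Sall4 and at 463 to 1814 TPM without Esrrb. Without Esrrb on days 1 and 2, Jdp2 stood at 1814 and 1558 TPM and Ins2 at 1098 and 3367 TPM. Without Glis1 on days 0 and 7, Jdp2 stood at 1684 and 1509 TPM and Ins2 at 5.83 and 0 TPM. These libraries also differ in day and in Esrrb, at 9.29 and 70.5 TPM against 4292 and 4894 TPM, so they are no matched pairs. The part of the other factors in the difference was not tested, and since runs are not assigned to libraries, arm and run cannot be told apart. RNA was measured in whole cultures, so fewer cells that express a gene and less RNA per cell cannot be told apart either.

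Presence of Glis1 and presence of the 7 genes did not coincide in every library. On day 0, which follows the 48 hours of infection, Glis1 already stood at 389 TPM without Jdp2, 419 TPM without Esrrb and 772 TPM without Sall4. In the day 0 library without Sall4, Ins2, Il9r, Itih3 and Dcpp1 were all listed at 0, and in that without Jdp2, Il9r, Tlx3, Dcpp1 and Dcpp2 were. In the day 0 library without Esrrb, by contrast, Ins2 was at 87.0 TPM and the Dcpp sum at 126 TPM, while Itih3 and Tlx3 were at 0. By day 1 Ins2 reached 14.9 TPM without Jdp2, 27.1 TPM without Sall4 and 1098 TPM without Esrrb. Between days 6 and 7 without Jdp2, Glis1 went from 555 to 206 TPM, Ins2 from 192 to 121 TPM, the Dcpp sum from 452 to 276 TPM and Il9r from 5.47 to 1.0 TPM, and Itih3 and Tlx3 were lower on day 7 as well. The other delivered factors of that arm fell in the same step, Esrrb from 1206 to 594 TPM and Sall4 from 511 to 213 TPM, and their part was not tested. In JEGS on day 6, with 258 TPM of Glis1, Ins2 stood at 424 TPM and Il9r at 1.72 TPM.

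Over the 27 libraries that received Glis1, Pearson's r between log2(TPM + 1) of Glis1 and of a member was 0.66 for Il9r, 0.42 for Ins2, 0.37 for the Dcpp sum, 0.13 for Itih3 and 0.04 for Tlx3. These values are descriptions, since libraries of an arm may share a culture series and those of a day share a time. Within the 24 libraries of the 3 leave-out arms with Glis1, and with arm and day in the model, the slope of a member on the log2 Glis1 level passed in 0 of 7 genes by edgeR, against 0.0172% of all genes. At an unadjusted p under 0.05 there were 2 (Il9r and Itih3), where 10% of all genes were. With Glis1 on the CPM scale there were 5, where 10% of all genes were, and with the other factors as a covariate 4, where 14.3% were. Leaving out 1 day gave 1 to 4, where 7.01% to 16.9% of all genes were. In these fits no member passed after adjustment. Limma also called 0, and DESeq2 called 0 of the 4 members to which it gave an adjusted p, which leaves out Il9r, Itih3 and Tlx3. The estimates were 1.71 ± 0.68 for Il9r (adjusted p = 0.413) and 1.60 ± 0.49 for Itih3 (adjusted p = 0.277), in log2 units per unit of log2(Glis1 CPM + 1). Ins2 stood at 0.98 with a 95% interval of -0.33 to 2.29, and the Dcpp sum at 0.73 with an interval of -0.94 to 2.41. Without the day factor the slopes of Il9r and Itih3 were 2.30 and 1.78 and passed, where 7.45% of all genes did.

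**Figure D2:**
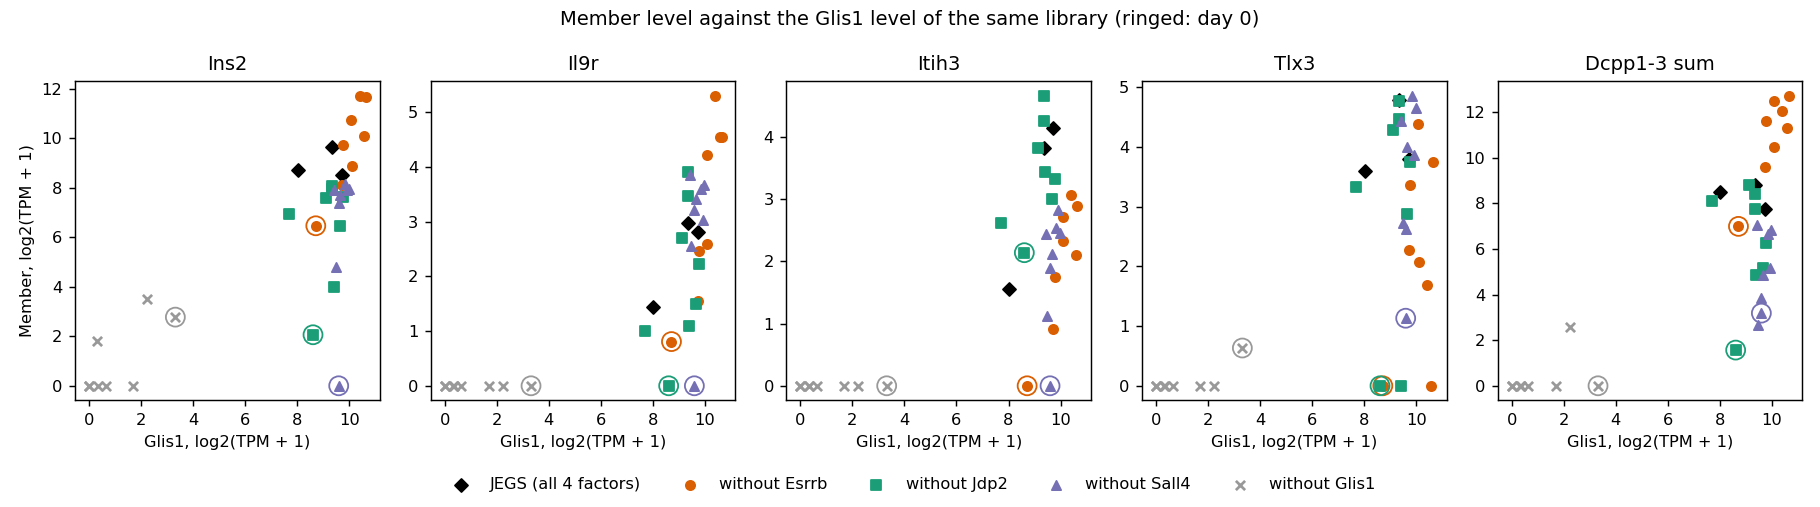
Level of each member outside the Dcpp cluster and of the Dcpp sum against the Glis1 level of the same library, both as log2(TPM + 1), with 1 symbol per library and a ring around day 0. Libraries without Glis1 form the group at the left, and at the right several ringed libraries sit at or near 0 for a member although Glis1 stands at 389 TPM or more.

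The 3 leave-out arms that received Glis1 were compared with each other. The arm without Glis1, whose low levels served to choose the members, does not enter these comparisons. The members were chosen with earlier results of these data known, so the choice was not blind to their levels in these arms. Each comparison sets 8 libraries against 8 with day as a factor, and the comparisons share arms. Dcpp1, Dcpp2 and Dcpp3 are near copies that move together. Here and in all other counts of members they are therefore not 3 separate results. Ins2 and the Dcpp genes were higher without Esrrb than in both other arms. Against the arm without Sall4, 5 of 7 members passed, where 48.3% of 17414 genes did. Ins2 was higher without Esrrb by a log2 difference of 2.80 ± 0.47 (SE, edgeR adjusted p = 4.3e-05), and the Dcpp sum by 6.09 ± 0.63 (adjusted p = 1.1e-07), which is 67.9-fold. The single Dcpp genes stood at 5.55 to 6.02. Tlx3 went the other way, at -1.61 ± 0.41 (adjusted p = 2.4e-03). Il9r at 0.39, with a 95% interval of -0.63 to 1.40, and Itih3 at -0.15, with an interval of -1.05 to 0.74, did not pass.

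Against the arm without Jdp2, 6 of 7 members passed, where 21.9% of genes did. Ins2 was higher without Esrrb by 3.35 ± 0.48 (adjusted p = 2.7e-05) and the Dcpp sum by 4.67 ± 0.59 (adjusted p = 6.5e-06), with the single Dcpp genes at 4.15 to 4.56. Itih3 was lower at -1.63 ± 0.41 (adjusted p = 6.3e-03), so the order of these arms was the reverse of that for Ins2. Il9r was higher by 1.46 ± 0.51 (adjusted p = 0.042), but this call was lost when any 1 of days 0 to 4 was left out, at adjusted p values from 0.052 to 0.175, in both limma fits (0.094 and 0.064) and with no day factor (0.126). Tlx3 at -0.93 (interval -1.77 to -0.10) did not pass.

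Between the arms without Jdp2 and without Sall4, 2 of 7 members passed, where 35.7% of genes did. Itih3 was higher without Jdp2 by 1.48 ± 0.38 (adjusted p = 4.5e-03). Dcpp3 was higher by 1.87 ± 0.61 (adjusted p = 0.021), a call lost without day 4 (adjusted p = 0.063) and in both limma fits (adjusted p = 0.067), and the Dcpp sum at 1.42 ± 0.56 did not pass (adjusted p = 0.052). For Ins2 the difference was -0.55 with an interval of -1.50 to 0.40, and for Tlx3 -0.67 with an interval of -1.43 to 0.08, so these neighbours in the order of arms did not differ beyond their spread. Depth and fragment length moved with the arms, at 1377656 to 1651712 counts and 200.6 to 204.7 bases without Esrrb against at least 1865680 counts and 205.7 bases or more without Jdp2 and without Sall4. Their part in the differences was not tested.

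JEGS, the only arm with all 4 factors, was set against the mean of the 3 leave-out arms with Glis1 on days 2, 4 and 6. By edgeR 0 of 7 members passed, where 2.38% of 16111 genes did, and 0 had an unadjusted p under 0.05, where 17.3% of genes had one. DESeq2 and limma also called 0. The difference was 0.38 for Ins2 (95% interval -0.61 to 1.36), -0.71 for Il9r (-1.91 to 0.49), 0.68 for Itih3 (-0.29 to 1.64), 0.45 for Tlx3 (-0.46 to 1.37) and 0.02 for the Dcpp sum (-1.10 to 1.14). With 3 libraries of JEGS the intervals leave room for differences of more than 2-fold in every member. The mean of the 3 arms also joins very unequal values, since on day 4 the Dcpp sum was 447 TPM in JEGS, 5818 TPM without Esrrb, 216 TPM without Jdp2 and 34.3 TPM without Sall4.

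**Figure D3:**
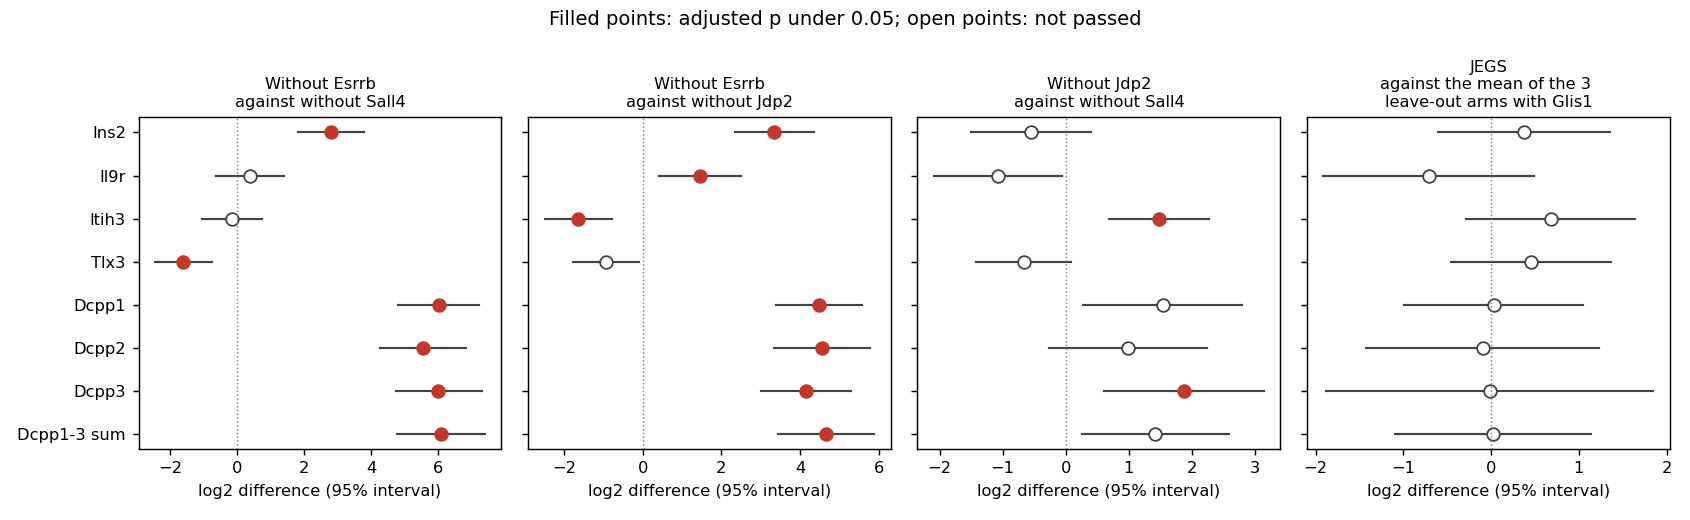
Log2 difference (point) and 95% interval (line) of each member and of the Dcpp sum in 4 comparisons, with filled points where the adjusted p from edgeR is under 0.05. Ins2 and the Dcpp genes lie to the right of 0 in both comparisons of the arm without Esrrb, Itih3 and Tlx3 do not, and all points of the JEGS comparison are open.

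The time courses differed in shape. Without Esrrb, Ins2 and Il9r were highest on day 2, the Dcpp sum on day 3 and Tlx3 on day 4, and each was lower on day 6, with Ins2 at 274 TPM and the Dcpp sum at 772 TPM, before values of 467 and 1402 TPM on day 7. In the arm without Jdp2 the peaks came on day 4 (Itih3 and Tlx3), day 5 (Ins2 and Il9r) and day 6 (Dcpp sum). Without Sall4, Ins2 and Tlx3 were highest on day 6 and Il9r and the Dcpp sum on day 7. A straight line over days fitted to each arm passed for 2 of 7 members without Jdp2 (Dcpp2 and Dcpp3), where 9.33% of genes passed. Without Sall4 it passed for Dcpp2 alone, where 8.85% did. At an unadjusted p under 0.05 there were 4 members without Jdp2 (Tlx3 and the Dcpp genes), where 23.3% of genes were. Without Sall4 there were 5 (the same and Ins2), where 24.3% of genes were. The slope of the Dcpp sum was 0.79 ± 0.19 log2 units per day without Jdp2 (adjusted p = 8.6e-03) and 0.68 ± 0.19 without Sall4 (adjusted p = 0.026). The call of the sum without Sall4 was lost on leaving out day 1 (adjusted p = 0.094) or day 2 (adjusted p = 0.062). Calls of the single genes were lost without 1 day in both arms, for Dcpp2 without Sall4 on leaving out any 1 of days 1 to 7 (adjusted p from 0.068 to 0.134).

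Without Esrrb 0 of 7 members had a slope that passed by edgeR, where 18.8% of genes did, and 0 had an unadjusted p under 0.05, where 31.4% of genes had one. DESeq2 called 1, Il9r at -0.48, and 23.5% of all genes. Limma called 0 with a pseudocount of 1 and, with a pseudocount of 0.1, 1 (Tlx3 at 0.82) and 14.4% of all genes. A line describes a rise and a fall poorly, and without day 0 the slopes of Ins2 at -0.50 (adjusted p = 0.012) and Il9r at -0.67 (adjusted p = 5.0e-04) passed, as did 20.4% of all genes. A test of whether slopes differ among the 3 arms passed in 803 of 17414 genes. For the Dcpp sum the slope was higher without Jdp2 than without Esrrb by 0.83 and did not pass (adjusted p = 0.151), nor did Ins2 (adjusted p = 0.313).

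Among themselves the members were unequally alike over the 27 libraries with Glis1. The Dcpp genes correlated with each other at r of 0.97 to 0.98, which includes the reads they share, and Ins2 correlated with their sum at 0.84 and with Il9r at 0.79. Itih3 and Tlx3 stood apart, with r of 0.49 to each other, 0.36 and 0.45 to Ins2, and 0.22 and 0.21 to the Dcpp sum. Among 18321 genes at 1 TPM or more in at least 3 of these libraries, the closest to Ins2 were Cdc42ep4 (0.91), Arsg (0.90) and the neurotrophic ligand gene Nrtn (0.90). The closest to Il9r were Ccdc88b (0.88), Ccdc85c (0.88) and the cell cycle inhibitor Cdkn1c (0.86). For Itih3 they were Phactr1 (0.87), the tight junction gene Cldn4 (0.84) and the protein kinase C gene Prkcb (0.83), and for Tlx3 they were Usp51 (0.89), the zinc transporter Slc30a2 (0.86) and the p53 target Pmaip1 (0.85). For the Dcpp genes Frmd4b (0.94 to 0.96) and the membrane collagen Col13a1 (0.915 to 0.935) came first in all 3, followed by Sox18, Sall1 or Aplnr. These likenesses did not extend to the arm without Glis1 in all cases. Ccdc85c had a median of 56.9 TPM there and 52.4 TPM in the libraries with Glis1, and Cldn4 had 97.5 and 60.8 TPM, while Cdkn1c had 47.0 and 1249 TPM and Nrtn 3.47 and 55.9 TPM.

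Genes that work with the members were read from fixed lists in the contrast without Glis1, where the median of all genes was 0.01, 16.3% of genes were lower and 20% higher. A list's share near these is no result about the list. Other beta cell genes were low in all arms beside Ins2, the highest of them being Iapp at up to 32.6 TPM without Sall4. Of 21, 13 were tested, 3 were lower and 1 higher without Glis1, near the share over all genes, with a median of -1.43. The islet peptide Iapp was lower at -3.68 ± 0.76 (adjusted p = 3.1e-04) and the granule protein Chga at -2.56 ± 0.69, while the prohormone convertase Pcsk1 was higher at 1.36 ± 0.48. Their summed level was 5.73 to 9.01 TPM without Glis1, 1.33 to 33.2 TPM without Esrrb, 4.65 to 28.1 TPM without Jdp2, 5.47 to 49.2 TPM without Sall4 and 10.1 to 28.5 TPM in JEGS. The beta cell regulator Pdx1 had 11 counts over all 35 libraries and Ins1, the other mouse insulin gene, had 14, against 4969 for Ins2, and Pax4 and the zinc transporter Slc30a8 had 0. The beta cell factors Nkx6-1 and Mafa had 282 and 107 counts, 96 and 22 of them without Glis1, and at most 5.90 and 4.36 TPM. Without Glis1, 7 of the 21 had no count, namely Ins1, Pdx1, Neurog3, Nkx2-2, Ucn3, Pax4 and Slc30a8. Neurog3 and Nkx2-2 had 20 and 30 counts over all libraries. Iapp had 1 of its 188 counts without Glis1 and Chga 5 of 221, while Isl1 had 16 of 50 and Pcsk1 22 of 94.

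The interleukin 9 pathway was measured at every step except its ligand, Il9, which was at 0 in all 35 libraries. Of 12 genes tested besides Il9r, 8 were higher without Glis1, where 20% of all genes were, and the other 4 did not pass (median 0.73). The feedback inhibitor Cish was higher by 1.44 ± 0.25 and Stat5a by 1.14 ± 0.20. The receptor chain Il2rg, the partner of Il9r, reached at most 8.64 TPM in any library. Lymphoid and mast cell markers were low in each arm, with sums of 2.50 to 8 TPM without Glis1, 1.84 to 18.7 without Esrrb, 0.18 to 28.4 without Jdp2, 1.51 to 12.3 without Sall4 and 8.28 to 41.7 in JEGS over 16 genes. The pan-leukocyte gene Ptprc reached at most 2.50 TPM, and the mast cell genes Fcer1a, Cpa3 and Mcpt4 were at 0 in all libraries.

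Genes around Itih3 and Tlx3 moved in both directions. Of 15 tested genes of the hyaluronan matrix and of the inhibitor family, 3 were lower and 2 higher (median -0.05), near the share over all genes. The lower ones were the hyaluronan synthase Has2 at -2.40 ± 0.55, the pentraxin Ptx3 at -2.25 ± 0.48 and Itih4 at -1.93 ± 0.55. Of 9 hepatocyte markers tested, 3 were lower and 3 higher, the lower ones being Apob at -4.45 ± 0.51, Fgb at -4.37 ± 0.73 and Ttr at -2.75 ± 0.67, and their summed level was 12.3 to 90.7 TPM without Glis1, inside the range of 2.66 to 153 TPM without Sall4. Of 10 tested homeobox genes related to Tlx3 or known as its partners, the cofactor Pbx2 was lower at -0.81 ± 0.15, Meis1 was higher at 0.67 ± 0.13 and 8 did not pass. Neuronal markers were lower in 2 of 11, Tubb3 at -0.98 ± 0.38 and Map2 at -0.87 ± 0.28.

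Of the salivary genes other than Dcpp, none of those tested was called lower without Glis1. Of 6 tested, 3 were higher without Glis1, where 20% of all genes were, and the other 3 did not pass. The water channel Aqp5 averaged 470 TPM there against 23.0 to 85.9 TPM in the other arms (3.72 ± 0.20, adjusted p = 9.1e-15). The salivary proteins Pip, Smr2, Smr3a and Cst10 were at 0 in all 35 libraries. Other genes of the list were uneven. The libraries without Glis1 held 4 of 290 counts of Ltf and 1 of 30 of Muc5b, but 31 of 42 of Car6 and 17 of 26 of Lpo. Of 17 Glis, Gli and Zic genes and Hedgehog targets, Glis1 included, 8 were lower without Glis1, where 16.3% of all genes were, and 2 were higher. The Hedgehog inhibitor Hhip stood at -3.86 ± 0.46 and the Hedgehog receptor Ptch1 at -2.67 ± 0.30, from 20.2 to 82.1 TPM in the other arms to 4.86 TPM. Among the 16 fibroblast markers 5 were lower and 4 higher, with Pdgfra at -1.81 ± 0.31, Prrx1 at 1.34 ± 0.16 and Fn1 at -1.17 ± 0.16. They were expressed in all arms, with a summed level of 1338 TPM or more.

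The genes beside the member loci were examined as well. Of the 2 nearest protein-coding genes on each side of 5 loci, 20 in all, 15 could be tested. Of these 11 were lower without Glis1, where 16.3% of all genes were, and 4 did not pass (median -1.66). Among the lower ones Gabrp, Th, Ascl2, Nsg2 and Mustn1 had only 1, 3, 4, 6 and 8 counts without Glis1. Genes that low pass the filter mainly through the arms where they are high. The contrast is also the one that served to choose the members, so no effect of the region is read from this count. Next to Ins2, the imprinted growth factor Igf2 averaged 642 TPM without Glis1 and 2450 to 3320 TPM in the other arms (-2.54 ± 0.25, adjusted p = 3.6e-09). On the other side of Ins2, Th, the rate-limiting enzyme of catecholamine synthesis, averaged 0.318 TPM against 4.64 to 55.5 TPM (-5.73 ± 0.97), and it was highest without Esrrb, as Ins2 was. The factor Ascl2 stood at -2.72 ± 0.87, and the ribosomal protein gene Mrpl23 did not pass. Beside Il9r lie Snrnp25, at 14 TPM against 80.5 to 169 TPM (-2.72 ± 0.30), and Rhbdf1 (-1.30 ± 0.26), and on its other side Nsg2 was lower at -1.80 ± 0.64. In RefSeq, Snrnp25 lies 132 bases from Il9r, and whether counting used strand is not given in the sources used here.

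The neighbours of Tlx3 and Itih3 were lower in part. Ranbp17 (-1.26 ± 0.28) and Gabrp (-2.90 ± 0.71) beside Tlx3 passed, while Npm1, at -0.06 ± 0.11, and Fgf18, at 0.39 ± 0.16, did not. Around Itih3, Itih4, Mustn1 (-1.66 ± 0.60) and Nek4 (-0.46 ± 0.15) were lower, and its family member Itih1 was at 0 counts without Glis1 and at most 0.164 TPM on average in any other arm. The proteases Prss21 and Prss32 and the secretory genes Sbp and Sbpl around the Dcpp genes averaged no more than 1.14 TPM in every arm. Levels as high as those of the Dcpp genes without Esrrb were thus not seen in them. Sbp and Prss21 averaged highest without Esrrb, at 1.14 and 0.276 TPM, Prss32 without Glis1 (0.251 TPM) and Sbpl without Sall4 (0.08 TPM). All of these values are near the floor.

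**Figure D4:**
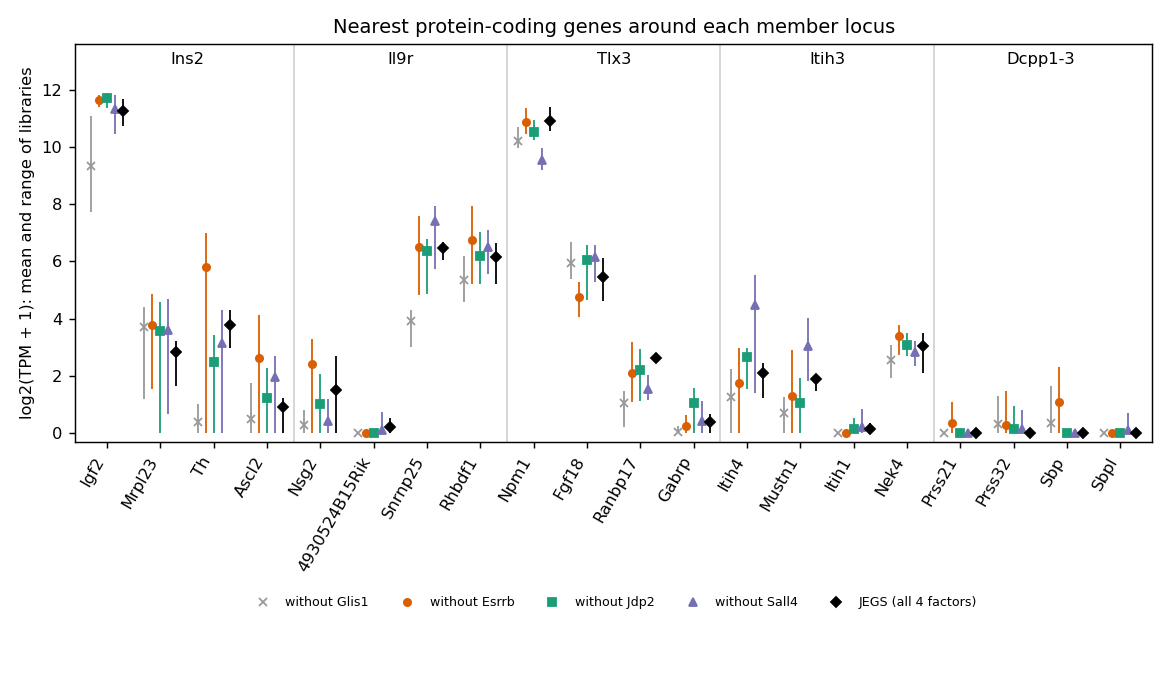
Mean (symbol) and range over libraries (line) of log2(TPM + 1) in each arm for the 2 nearest protein-coding genes on each side of the 5 member loci. Igf2, Th and Snrnp25 are lower without Glis1 (grey crosses), and the 4 genes around the Dcpp cluster are near 0 in all arms.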

How the data were processed

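RNA was sequenced from 35 libraries. The reads were processed with RSEM, Bowtie2 and bcl2fastq on mm10 per the submitters' processing notes, which give no versions. The authors deposited 1 RSEM table per library, with expected counts (estimated read counts, not normalized), TPM and FPKM per gene, per the file headers. FPKM was deposited but enters no result. Lengths served only for the fragment length of a library, the median of length minus effective length over its longer genes. Of 54752 gene identifiers, 54723 were matched to a symbol in GENCODE M21. RSEM divides reads shared between paralogs, so the Dcpp genes are also given as a sum.

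Titles give the arm and the day. The treatment field contradicts them by listing all 4 factors throughout, but factor levels followed the titles. Kits and runs named in the labels are not assigned to libraries, so no batch term was fitted.

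Expected counts were rounded and tested with edgeR 4.0.16 (R 4.3.3): TMM scaling, a filter that kept genes reaching 1 CPM in 3 or more of the fitted libraries, and the quasi-likelihood F test, two-sided, with Benjamini-Hochberg adjustment over all genes and a threshold of 0.05. Day was a factor in fits of arms. The fits were tested on simulated data. Errors are SE, and 95% intervals of a difference use the fitted degrees of freedom. Pooled ratios carry exact 95% intervals, and arms at 0 a floor of 3 counts over the arm. Alternatives were DESeq2 1.42.0, its size factors, library totals, no filter, limma 3.58.1 on log2(TPM + 1) and log2(TPM + 0.1), no day factor, other Glis1 scales and leaving out each day. Motifs were searched with Python 3.11.15, and identities come from global alignments.

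The members, the gene lists and the rule for naming genes were chosen with earlier results of these data known. Named are the members, Glis1, up to 3 genes per list with the largest change past the threshold and a mean of 1 CPM or more, the 2 nearest protein-coding genes on each side of a locus, the 3 genes most like each member, and the 5 top further genes with at most 3 counts without Glis1. The other factors, single markers of a list and its genes at 0 were named outside this rule, after their values were seen. One gene that this rule names is not reported here.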

Additional observations from a re-analysis of the deposited data

Results flagged for a closer look

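In groups of 8 libraries, a library was singled out when its gap to the nearest other value of log2(TPM + 1), divided by the range of the group, exceeded the 95% critical value of Dixon's test. A gene was tested in an arm where its highest library held more than 3 counts. This leaves out every single member without Glis1, Ins2 included, so that only the Dcpp sum was tested in that arm. Of 25 groups tested 4 had such a library, and chance alone singles out some groups at that level. In 3 of them it was a day 0 library at the low end. Dcpp1 was at 0 TPM on day 0 without Jdp2 (gap over range 0.549), Ins2 was at 0 TPM on day 0 without Sall4 (0.591), and Il9r was at 0 TPM in that same library (0.666). The other was at the high end, where the Dcpp sum reached 4.95 TPM on day 6 without Glis1 and was at 0 in the other 7 libraries of that arm, where any value above 0 would be singled out. That library also held 3 counts of Glis1 and 2 of Ins2.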

How the results depend on the processing

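Among the alternative values for single members, 893 kept their direction and their side of the threshold, 34 gained and 30 lost a call, and no called value turned in direction. Among the alternative counts of members that passed, 106 stayed within 1.5 times and 25 did not. Between the arms without Jdp2 and Sall4 the count of 2 became 5 with no filter and 1 with limma on log2(TPM + 0.1), and leaving out a day gave 1 to 3. The day slope without Esrrb gave 1 in place of 0 with DESeq2 and with limma on log2(TPM + 0.1), and 0 to 2 on leaving out a day. The slope without Jdp2 gave 4 in place of 2 with DESeq2 and with both limma fits, and 0 to 3 on leaving out a day. The slope without Sall4 gave 3 in place of 1 with DESeq2 and with both limma fits, 0 with library totals only, and 0 to 1 on leaving out a day. In the fits with no replicate block, where day was dropped as the factor that pairs libraries, the count between the arms without Jdp2 and Sall4 was 1 in place of 2 and that of the slope on Glis1 was 2 in place of 0. Without it Tlx3 lost its call between the arms without Esrrb and Sall4 (adjusted p = 0.129). Limma on TPM moved the median of all genes between the arms without Jdp2 and Sall4 to 0.113. The cause of these changes was not tested. Replicate numbers stand for days and pair no cultures. At 0.277 to 0.79 CPM per count, a level under about 3 counts per arm could not be told from 0.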
